A study of Homo sapiens with 4 samples.

Results

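MHC class I antigen presentation was represented by 10 genes: the heavy chain genes HLA-B, HLA-E and HLA-F, the light chain gene B2M, the peptide loading genes TAP1, TAP2 and TAPBP, and the immunoproteasome genes PSMB8, PSMB9 and PSMB10. They were chosen by name, as every probe set of the arrays annotated with exactly 1 gene symbol, that symbol being among the 10. This gave 23 probe sets, and the 10 genes stand among 19775 genes with such a probe set. Each gene is represented by its brightest probe set, by the mean over the arrays, and all 10 passed a filter that asked for a value of at least 4.77 on 1 array or more, as did 15082 of the 19775 genes. At the level of probe sets, 22 of the 23 passed.

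RNA came from the human breast carcinoma line MDA-MB-231 (mesenchymal-like and triple-negative) and was hybridised to 4 Affymetrix U133 Plus 2 arrays. The groups were cells with a stable shRNA knockdown of the transcriptional repressor ZEB2, cells with the vector pLVTH as their control, cells transfected with a pool of siRNAs against ZEB2, and cells transfected with siRNA against luciferase as their control. The siRNAs were used at 20 nM, the cells were washed after 24 hours, and RNA was taken after a further 48 hours. For the stable lines 2 micrograms of RNA were labelled and for the transfected cells 100 ng, so that the method of knockdown, the culture and the amount of RNA labelled cannot be told apart. With 1 array a group, the differences within a pair have no replicate check, and precision is limited by the number of arrays. Whether the stable lines were clones was not given in the sources used here, nor was it stated that the 4 cultures were grown in parallel.

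Class I molecules show peptides from inside the cell to cytotoxic T cells. Peptides are cut by the proteasome, in which the interferon-inducible subunits PSMB8, PSMB9 and PSMB10 can replace the constitutive subunits PSMB5, PSMB6 and PSMB7. The transporter made of TAP1 and TAP2 carries the peptides into the endoplasmic reticulum, where tapasin, the product of TAPBP, helps to load them onto a heavy chain paired with B2M. Interferons raise the transcription of most of these genes, and breast carcinomas differ widely in how much class I they show.

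The arrays themselves were checked before the genes. ZEB2, read by its brightest probe set, had a level of 3.52 in the shRNA knockdown and 6.12 in its control, and of 3.51 in the siRNA knockdown and 6.56 in its control. Levels are log2 values throughout, and 1 unit of difference is 2-fold. The 8 markers fixed for MDA-MB-231-like cells, among them VIM and CD44, all lay above the filter level, between 10.6 and 14.1 over the arrays, while of the 4 luminal markers PGR and FOXA1 lay under it and GATA3 (8.18 to 9.48) and ESR1 (6.08 to 6.54) lay above it. The leukocyte marker PTPRC read 3.44 to 3.87, under the filter level on every array. Of the 9 leukocyte markers with a probe set, 6 or 7 reached that level on each array (MS4A1 was also under it on every array), with a mean of 5.16 and 5.66 in the shRNA knockdown and its control and of 5.35 and 5.30 in the siRNA knockdown and its control. HLA-DRA, a class II gene in that list, read 7.99 in the shRNA knockdown and 11.20 in its control, and 7.45 and 7.76 in the siRNA knockdown and its control. CD14, a monocyte marker, read 6.94 and 7.30 in the siRNA knockdown and its control. In the shRNA knockdown and its control it read 4.98 and 5.21. Its method effect was 2.02 ± 0.15 (SE) with a limma adjusted p of 0.0334, where 4.67% of all genes passed upward. CD163 and ITGAM, also leukocyte markers, did not pass for the method, with limma adjusted p-values of 0.216 and 0.426. For the 7 leukocyte markers that passed the filter, siRNA control minus shRNA control was below 0 for 5 and above 0 for 2 (median -0.08). The part of CD14 in the method differences given below was not tested. The part of HLA-DRA-expressing cells in the lower levels of the shRNA knockdown was not tested. The shRNA control stood farthest from the others, with Pearson r across genes of 0.926 and 0.928 against the siRNA arrays, where the shRNA knockdown had 0.949 and 0.952 and the siRNA arrays had 0.994 with each other. The 3′ minus 5′ level of the control probe sets for ACTB was 0.52 and 0.50 in the siRNA knockdown and its control, and -0.03 and -0.04 in the shRNA knockdown and its control. For GAPDH it was 0.19 and 0.12 on the siRNA arrays and -0.07 on both shRNA arrays. The part of this in the differences between methods given below was not tested.

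Promoter windows of these genes were searched for interferon elements and for letters that ZEB proteins bind. The part of such letters in the levels was not tested. RefSeq windows (GRCh38.p14, 250 bases before to 50 from the start site) were found for 9 of the 10 genes, 11 windows in all, since PSMB8 and TAP1 had a pair each. The core of the interferon-stimulated response element, GAAA, any 2 bases and GAAA again, was searched on both strands. It matched in a window of 7 of the 9 genes, all but HLA-B and PSMB9. Counted by window, 7 of the 11 matched, against 3.57% of 35116 windows of this length. The motif TTCNNNGAA, the core of the interferon gamma activated site, matched in 1 of the windows of PSMB8 and of TAP1, against 7.66% of all windows. CAGGTG, the E-box letters that ZEB proteins bind, matched for B2M and PSMB8, against 20.6% of all windows. Capitals mark matches of these 3 motifs on either strand, and matches of the first overlap each other in B2M, TAP1 and TAPBP. The coordinates are chr15:44711267-44711566 on the plus strand for B2M, and on the minus strand chr6:32853655-32853954 for TAP1, chr6:33314029-33314328 for TAPBP and chr16:67936801-67937100 for PSMB10.
B2M: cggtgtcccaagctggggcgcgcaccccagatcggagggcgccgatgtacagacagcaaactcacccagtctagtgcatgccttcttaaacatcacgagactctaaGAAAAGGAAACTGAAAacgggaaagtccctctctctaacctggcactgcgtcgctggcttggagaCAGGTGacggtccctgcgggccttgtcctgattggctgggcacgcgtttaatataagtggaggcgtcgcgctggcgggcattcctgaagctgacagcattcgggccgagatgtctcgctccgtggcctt
TAP1: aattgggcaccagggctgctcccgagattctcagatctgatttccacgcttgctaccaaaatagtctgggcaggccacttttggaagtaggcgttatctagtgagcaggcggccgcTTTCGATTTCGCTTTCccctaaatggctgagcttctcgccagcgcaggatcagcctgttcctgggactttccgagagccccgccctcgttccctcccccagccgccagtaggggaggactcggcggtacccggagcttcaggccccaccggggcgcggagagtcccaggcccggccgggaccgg
TAPBP: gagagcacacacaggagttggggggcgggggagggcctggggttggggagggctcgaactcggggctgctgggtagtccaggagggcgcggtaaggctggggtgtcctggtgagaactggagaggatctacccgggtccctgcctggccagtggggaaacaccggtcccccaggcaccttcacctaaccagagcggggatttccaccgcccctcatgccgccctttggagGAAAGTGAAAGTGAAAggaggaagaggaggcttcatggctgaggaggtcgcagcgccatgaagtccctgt
PSMB10: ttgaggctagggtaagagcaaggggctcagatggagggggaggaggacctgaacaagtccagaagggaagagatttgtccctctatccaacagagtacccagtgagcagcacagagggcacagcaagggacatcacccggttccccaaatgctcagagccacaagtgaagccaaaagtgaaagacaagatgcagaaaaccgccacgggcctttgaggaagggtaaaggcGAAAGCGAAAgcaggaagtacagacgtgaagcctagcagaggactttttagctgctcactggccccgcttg

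In B2M the matches of the interferon element began at positions -144 and -138 and the E-box at -79, counting -1 as the base before the start site. In TAP1 they began at -134 and -128, and in TAPBP at -20 and -14. PSMB10 had 1 match, beginning at -21. TAP1 and PSMB9 lie head to head, with start sites 488 bases apart at 32853704 and 32854192 of chromosome 6, and their windows shared 13 bases. The TAP1 matches lie between these start sites but outside the window of PSMB9, so the lack of a match for PSMB9 holds for its window only. A match describes letters in these windows, and no binding was measured. Only exact matches of a pattern were counted. The lack of a match for HLA-B thus does not show that its promoter has no interferon element.

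The stable knockdown was set against its vector control to see how class I genes stood when ZEB2 was kept low. Of the 10 genes, 9 were lower in the shRNA knockdown, TAPBP being the exception, with a median difference of -0.41. Among all genes 53.2% were lower by any amount, with a median of -0.02. No gene of the 10 reached 2-fold in either direction, a size that 2.39% of all genes reached upward and 2.08% downward. The lowest, PSMB9, was 1.497-fold lower and just short of 1.5-fold, a size that 7.11% of all genes reached downward. With bulk RNA, fewer cells that express a gene and less RNA per cell cannot be told apart.

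**Figure D1:**
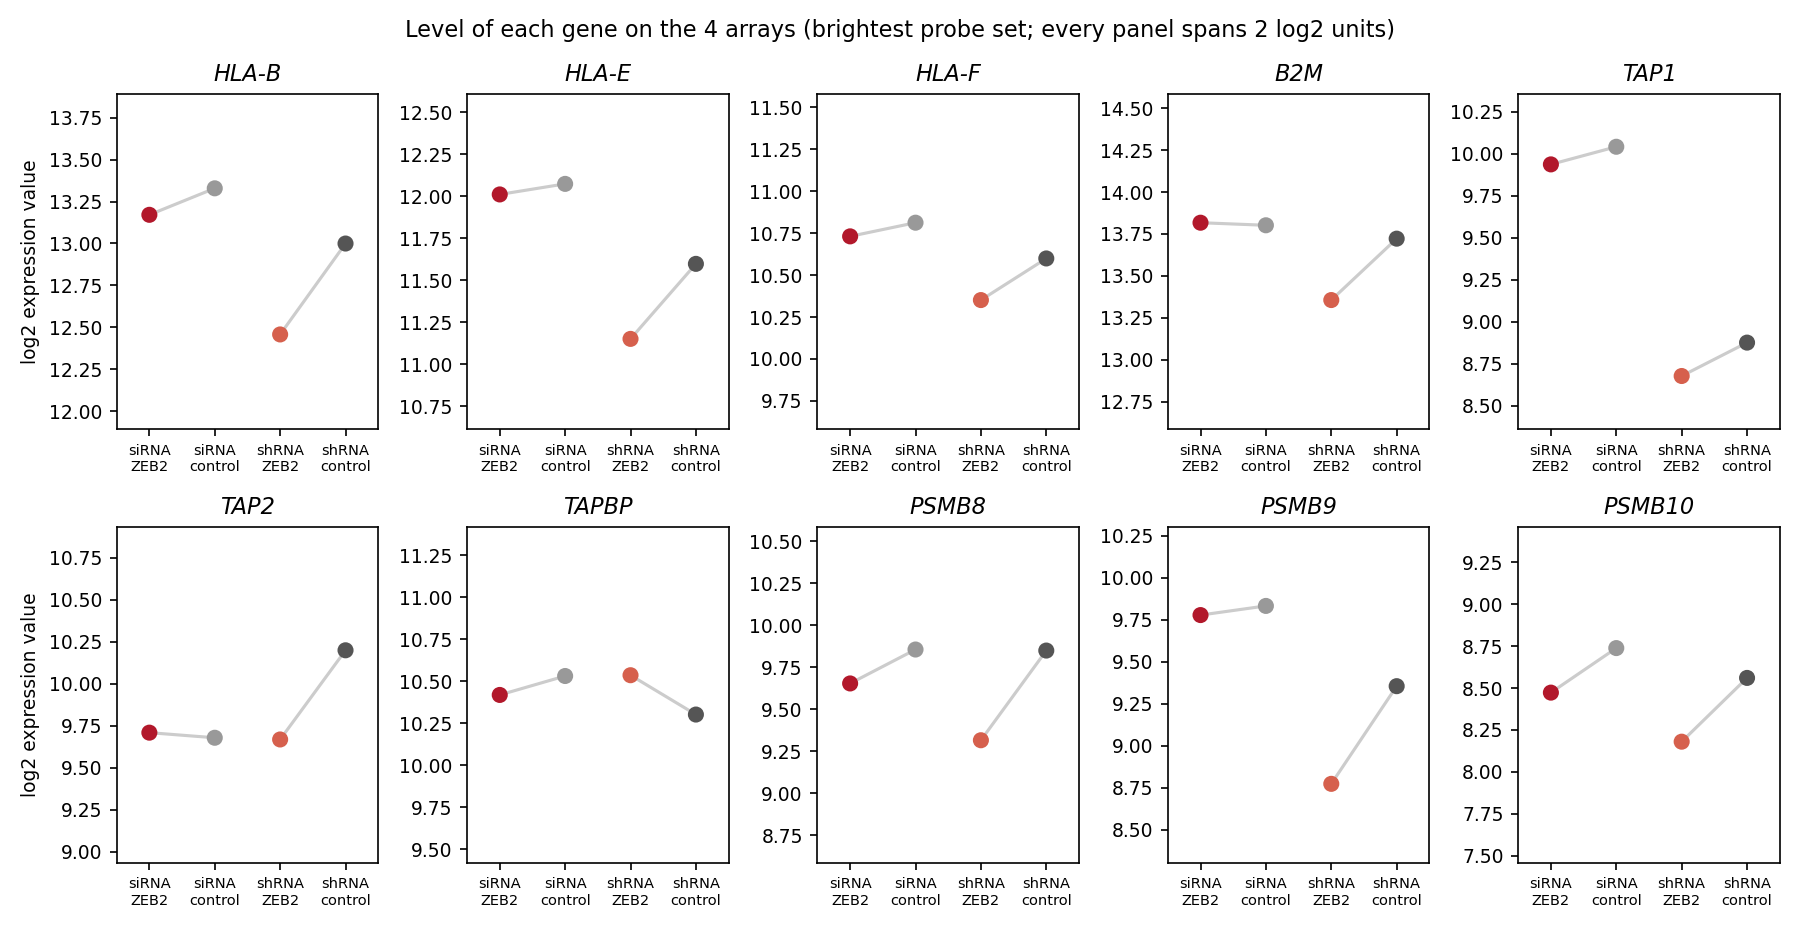
Level of each of the 10 genes (log2 expression value, y axis) on the 4 arrays (x axis), each point being 1 array and grey lines joining each knockdown to its control. In 9 of the 10 panels, all but that of TAPBP, the shRNA knockdown is the lowest array.

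The heavy chains were lower together in the shRNA knockdown. HLA-B, a classical class I gene, read 12.46 in the shRNA knockdown and 13.00 in its control, 1.46-fold lower. HLA-E, whose product carries leader peptides to receptors of natural killer cells, read 11.15 and 11.60, 1.36-fold lower. HLA-F, a nonclassical class I gene, read 10.35 and 10.60, a difference of -0.25. All 9 probe sets of the 3 genes were lower in the shRNA knockdown, between -0.54 and -0.08. Class I genes are near-identical over long stretches, and 7 of these 9 probe sets are marked as cross-hybridising, so the values can mix several heavy chains. Without such probe sets HLA-B had no value, HLA-E differed by -0.13 and HLA-F, then read by a dim probe set, by -0.23. The light chain gene B2M, which has no such copies, read 13.36 in the shRNA knockdown and 13.72 in its control, 1.29-fold lower. Its other probe sets differed by -0.28 and -0.34.

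The immunoproteasome genes were the lowest of the groups by their median, -0.53. PSMB9 read 8.77 in the shRNA knockdown and 9.35 in its control, and PSMB8 read 9.32 and 9.85. PSMB10 read 8.18 and 8.56, 1.30-fold lower. The constitutive subunits that they replace lay on the other side of 0, with PSMB5 at 0.18, PSMB6 at 0.12 and PSMB7 at 0.23. Among the 15082 genes the differences of PSMB9, PSMB8 and PSMB10 stood at the percentiles 7.19, 8.52 and 15.4, counted from the lowest.

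The loading genes did not share a direction. TAP2 read 9.67 in the shRNA knockdown and 10.20 in its control, 1.45-fold lower, and its other 3 probe sets differed by -0.24, -0.24 and -0.35. TAP1 read 8.68 and 8.88, a difference of -0.20. TAPBP read 10.54 and 10.30, a difference of 0.23, and its other probe sets were higher too, by 0.45 and 0.17. All 3 probe sets of TAPBP were thus higher in the shRNA knockdown, and they were the only 3 of the 23 that were.

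The transient knockdown was set against the luciferase control to see whether class I genes differed within days of lowering ZEB2. Of the 10 genes, 8 were lower in the siRNA knockdown, against 53.7% of all genes, but by small amounts. Their median difference was -0.09 and that of all genes -0.02. None reached 2-fold, as 0.0464% of all genes did upward and 0.126% downward. In all 10 genes the difference was smaller in size than in the shRNA pair. Over all genes the siRNA pair was narrower too, with an SD of differences of 0.235 against 0.499. The share of all genes with a smaller difference was not computed, so this count is not particular to the 10.

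By its median, -0.20, the immunoproteasome group again lay lowest. PSMB10 read 8.47 in the siRNA knockdown and 8.74 in its control, 1.20-fold lower, and PSMB8 read 9.65 and 9.86, 1.15-fold lower. PSMB9 read 9.78 and 9.83, a difference of -0.05, so the gene lowest in the stable knockdown was close to its control here. HLA-B read 13.17 and 13.33, 1.12-fold lower, and its other probe sets differed by -0.14 and -0.19. HLA-E differed by -0.06, HLA-F by -0.08, TAP1 by -0.11 and TAPBP by -0.11. B2M at 0.02 and TAP2 at 0.03 were close to their control. One dim B2M probe set, 232311_at, went further, reading 5.02 in the siRNA knockdown and 5.78 in its control, while the bright ones differed by 0.02 and 0.14.

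The 2 pairs share no array, so the genes lower in both could be counted. They were HLA-B, HLA-E, HLA-F, TAP1, PSMB8, PSMB9 and PSMB10, 7 of 10, against 27.8% of all genes. HLA-F rests on cross-hybridising probe sets there: without them it was 0.22 in the siRNA pair, and by the mean of its probe sets 0.03. The value of 0.22 comes from a dim probe set that read 5.01 to 5.39 over the arrays. None was higher in both. Among them PSMB8, HLA-B and PSMB10 had the lowest mean differences, at -0.37 ± 0.18, -0.35 ± 0.14 and -0.32 ± 0.17 (SE from limma over the 4 arrays).

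For an effect shared by both knockdowns, limma was fitted to the 4 arrays with the method as a block. Its error rests on 1 residual degree of freedom, so the p-values reflect how far the pairs differ, and no repeated culture enters them. None of the 10 genes passed, with Benjamini-Hochberg adjusted p-values from limma between 0.971 and 0.992, and 0 of 15082 genes did (0.0%). At an unadjusted p under 0.05 limma gave 384 of all genes and 0 of the 10. ZEB2 itself, the silenced target, was not called either, at -2.82 ± 0.18 (SE). The fit therefore cannot decide whether the 10 genes differ in the knockdowns, and nothing about them is concluded from it.

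**Figure D2:**
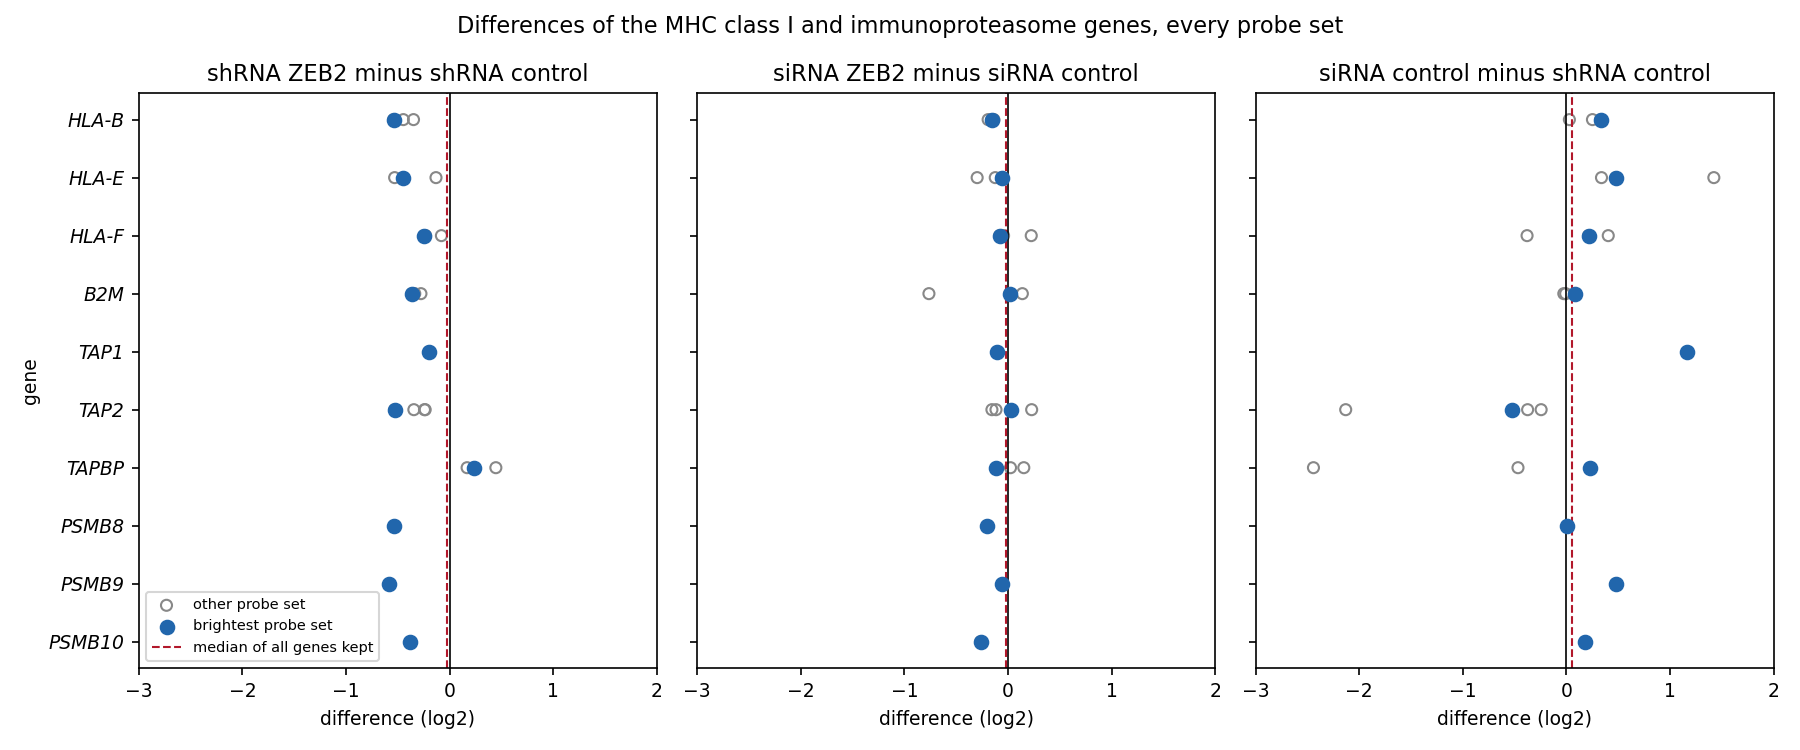
Differences on the log2 scale (x axis) for each of the 10 genes (y axis) in the shRNA pair, in the siRNA pair and between the controls. Filled points are the brightest probe set, open points the others, and the dashed line is the median of all genes kept. Filled points lie left of 0 for 9 genes with shRNA. With siRNA they span -0.27 to 0.03, and the open B2M point at -0.76 lies farthest left. Points lie widely apart between the controls for TAPBP, TAP2 and HLA-E.

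The controls, both of which keep ZEB2, were compared next, as siRNA control minus shRNA control. This comparison shares an array with each knockdown pair. Of the 10 genes, 9 were higher in the siRNA control, against 54.0% of all genes, with a median of 0.22 where all genes had 0.06. TAP1 alone reached 2-fold, with 10.04 in the siRNA control and 8.88 in the shRNA control, a size that 10.8% of all genes reached upward and 4.99% downward. PSMB9, its neighbour, had a level of 9.83 in the siRNA control against 9.35 in the shRNA control, and HLA-E read 12.07 and 11.60. TAP2 was the exception, at 9.68 and 10.20. PSMB8 was level, at 9.86 and 9.85.

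The 2 knockdown arrays were set against each other in the same way. TAP1 read 9.94 in the siRNA knockdown and 8.68 in the shRNA knockdown, and PSMB9 read 9.78 and 8.77. TAP2 was level between the knockdowns, at 9.71 and 9.67, and TAPBP read 10.42 and 10.54, the only one of the 10 that was lower in the siRNA knockdown. TAP1 and PSMB9 were the 2 genes at least 2-fold higher in the siRNA knockdown than in the shRNA knockdown, against 7.83% of all genes. Both siRNA arrays lay above both shRNA arrays for 6 of the 10 genes, namely HLA-B, HLA-E, HLA-F, B2M, TAP1 and PSMB9, against 39.2% of all genes. The reverse held for 0 of the 10, against 27.5%. These counts use the brightest probe sets. The order of the 6 did not hold for B2M by 201891_s_at, with 13.57 in the siRNA control and 13.60 in the shRNA control. Nor did it hold for HLA-B by 208729_x_at, with 12.65 in the siRNA knockdown and 12.76 in the shRNA control. It also failed by the dim probe sets 232311_at of B2M and 221978_at of HLA-F. The shRNA knockdown was the lowest of the 4 arrays for 9 of the 10 genes, against 28.8% of all genes.

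The method effect, siRNA arrays minus shRNA arrays with knockdown as a block, could be tested in the same limma fit. Its error too rests on 1 residual degree of freedom, with no repeated culture of either method. The method, the culture and the amount of RNA labelled cannot be told apart in it. TAP1 passed, at 1.21 ± 0.17 (SE) with a limma adjusted p of 0.0459, both siRNA arrays being higher than both shRNA arrays. Of all genes 4.67% passed upward and 2.22% downward. Without the filter on dim genes TAP1 had a limma adjusted p of 0.0596 and was not called. HLA-E at 0.67 ± 0.16, HLA-B at 0.52 ± 0.14 and PSMB9 at 0.74 ± 0.21 did not pass, with limma adjusted p-values of 0.0844, 0.101 and 0.106.

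For TAPBP, TAP2 and HLA-E, probe sets of 1 gene disagreed between the methods more than within a pair. The same held by smaller amounts for HLA-F (-0.38 to 0.40 between the controls) and HLA-B (0.03 to 0.33). For B2M they disagreed more in the siRNA pair. For TAPBP, the probe set 1555565_s_at read 6.57 and 6.54 in the siRNA knockdown and its control, and 9.43 and 8.99 in the shRNA knockdown and its control. The brightest TAPBP probe set, 208829_at, stayed between 10.30 and 10.54 on the 4 arrays.

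TAP2 showed the same split. Its probe set 204770_at read 5.88 and 5.99 in the siRNA knockdown and its control, and 7.88 and 8.12 in the shRNA knockdown and its control. The probe set 204769_s_at read 6.91 and 6.68 in the siRNA pair and 6.69 and 6.92 in the shRNA pair, with no such step. The remaining probe set, 208428_at, lay under the filter level on every array, between 3.77 and 4.30.

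For HLA-E the step ran the other way. The probe set 200904_at, the only one of the 3 not marked as cross-hybridising, read 10.01 and 10.31 in the siRNA knockdown and its control, and 8.76 and 8.89 in the shRNA knockdown and its control. Fitted one by one with limma, a choice made after the values were seen, 4 of the 22 probe sets passed for the method. Upward were TAP1 and 200904_at of HLA-E (1.34 ± 0.17, adjusted p from limma 0.0286), where 6.66% of all 29214 probe sets passed upward. Downward were 204770_at of TAP2 (-2.07 ± 0.16, adjusted p from limma 0.0182) and 1555565_s_at of TAPBP (-2.65 ± 0.20, adjusted p from limma 0.0181), where 9.47% passed downward. Between the controls, 2 of the member probe sets were at least 2-fold higher and 2 lower, sizes that 9.11% of all probe sets reached upward and 10.1% downward. The part of the 3′ to 5′ difference in these steps was not tested.

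**Figure D3:**
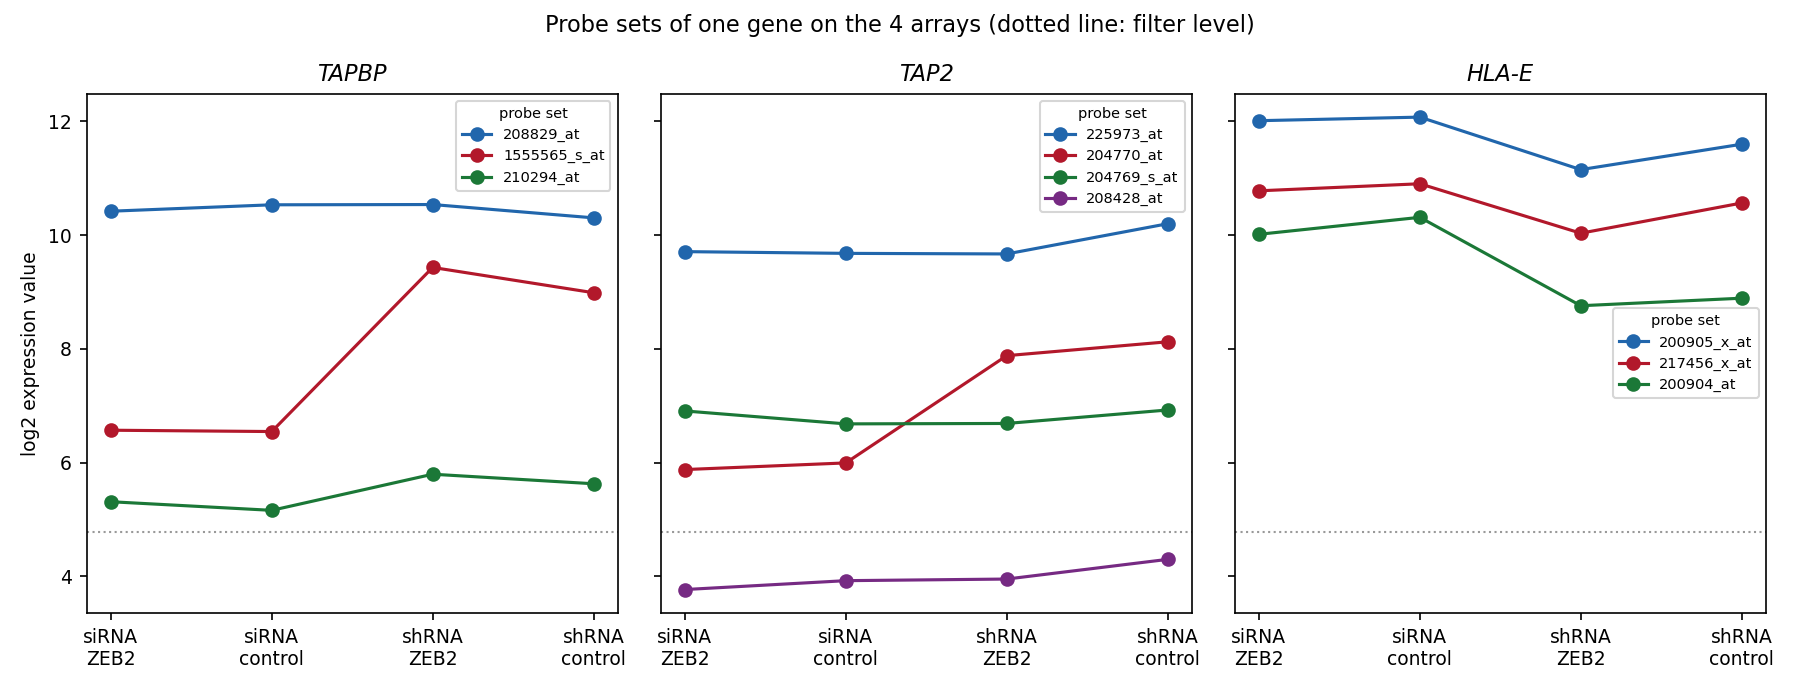
Levels (log2 expression value, y axis) of every probe set of TAPBP, TAP2 and HLA-E on the 4 arrays (x axis), with 1 line per probe set and the filter level dotted. Each of 1555565_s_at (TAPBP) and 204770_at (TAP2) lies lower on both siRNA arrays than on both shRNA arrays, while 200904_at (HLA-E) lies higher.

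In the 2 knockdown pairs other genes of the pathway did not follow the 10 as a body. The lists held 53 genes, of which 49 had a probe set and 46 passed the filter. The shRNA knockdown had 23 of them higher and 23 lower (median 0.01). The siRNA knockdown had 19 higher and 26 lower (median -0.01). Between the controls they did go with the 10. There 32 were higher in the siRNA control and 14 lower (median 0.26), where 54.0% of all genes were higher. At 2-fold in the shRNA pair 0 were higher and 4 lower: NLRC5, ULBP2, IFIT1 and IFIT3. Of all genes 2.39% reached that size upward and 2.08% downward. In the siRNA pair 0 reached 2-fold, and limma called 0 of the 46 for the common knockdown effect over all genes.

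NLRC5, the transactivator of class I genes, read 6.39 in the shRNA knockdown and 7.42 in its control, and 5.48 in the siRNA knockdown and 6.07 in its control. It was lower in both knockdowns. On both siRNA arrays it lay under both shRNA arrays, the opposite of TAP1 and, by its brightest probe set, of HLA-B. IRF1, an interferon-induced activator of class I genes, differed by -0.23 and -0.04 in the shRNA and siRNA pairs, with a level of 8.59 in the siRNA control against 7.91 in the shRNA control.

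The other heavy chains measured were also lower in the shRNA knockdown. HLA-C differed by -0.37 with shRNA and 0.02 with siRNA, and HLA-G gave -0.26 and -0.06, both read by cross-hybridising probe sets. Of the 6 stress ligands and other class I-like genes that passed the filter, 5 were higher in the shRNA knockdown. The median of the 6 was 0.47, and 53.2% of all genes were lower there. The exception was ULBP2, a ligand of the activating receptor NKG2D, at -1.39. The related ligands MICA and MICB were higher, by 0.53 and 0.68. Between the controls all 6 were higher in the siRNA control, against 54.0% of all genes. MICA, MICB and MR1 were higher by at least 2-fold, at 1.61, 1.07 and 1.14, as 10.8% of all genes were.

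Interferon response genes were split. The shRNA knockdown had 7 of 16 higher and 9 lower (median -0.23), with IFIT1 at -1.63 and IFIT3 at -1.05. In the siRNA pair they had a median of -0.01. In the siRNA control, compared with the shRNA control, 12 were higher, against 54.0% of all genes. By at least 2-fold 6 were higher, against 10.8% of all genes: MX1 (3.46), IRF9 (1.46), ISG15 (1.16), JAK1 (1.13), IFIT3 (1.10) and OAS1 (1.0044). GBP1, also interferon-induced, was lower there, at -1.16. MX1 did not follow IFIT1 in the shRNA pair, at 0.73. The part of interferon signalling in the levels of the 10 genes was not tested.

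Other genes of the pathway past 2-fold between the controls were PSME4, a proteasome activator, at 1.18, and PSME3, another activator, at -1.43.

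**Figure D4:**
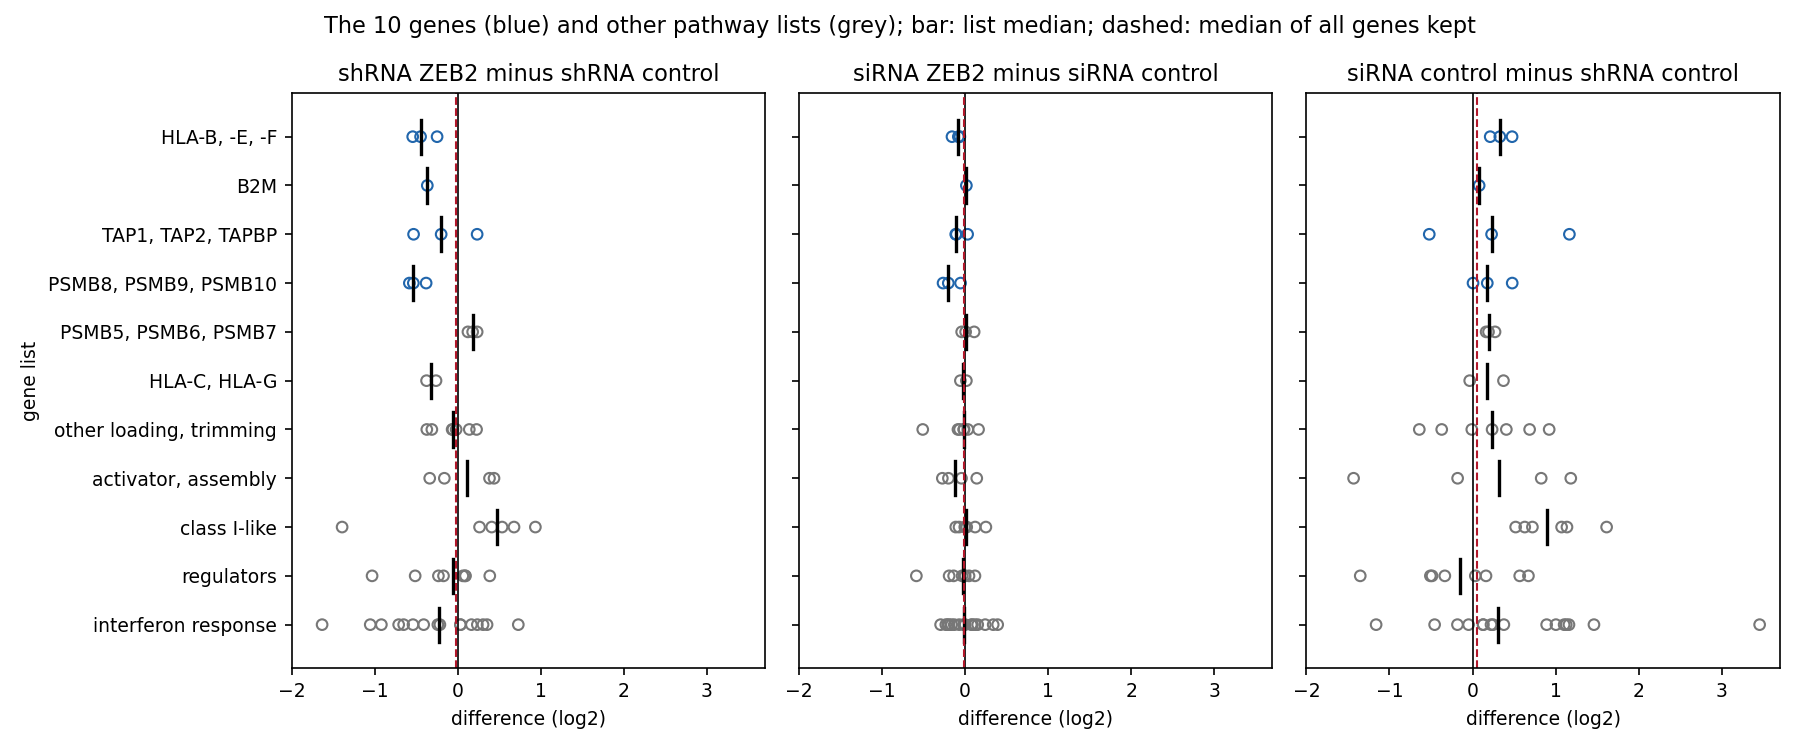
Differences on the log2 scale (x axis) of single genes, by list (y axis), in the shRNA pair, in the siRNA pair and between the controls, with a bar at the median of each list and a dashed line at the median of all genes kept. In the shRNA pair the immunoproteasome list has a median of -0.53 and the constitutive catalytic subunits have 0.18.

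The genes whose pattern over the 4 arrays was nearest to the mean of the 10 were YAF2, PDCD2L and DGKQ, at Euclidean distances of 0.02, 0.02 and 0.03 after each gene was centred on its own mean. In the shRNA pair they differed by -0.33, -0.38 and -0.37, and in the siRNA pair by -0.10, -0.12 and -0.11. The 10 genes themselves lay up to 0.83 from their mean.

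With the luciferase control in place of the vector control, the median difference of the 10 genes in the shRNA knockdown was -0.55, and TAP1 and PSMB9 were at least 2-fold lower, at -1.37 and -1.06. TAP2 and TAPBP were then level with the control, at -0.01 and 0.005. The other 8 genes were lower in the shRNA knockdown than in this control. This comparison crosses the methods, so knockdown, method, culture and amount of RNA labelled cannot be told apart in it. Its SD of differences across genes was 0.676, against 0.499 in the shRNA pair. Shares over all genes were not computed for it.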

How the data were processed

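Gene expression in 4 cultures of MDA-MB-231 cells was read on 1 Affymetrix U133 Plus 2 array each. Per the submitters' processing notes, the authors ran RMA (package affy) to give a log2 value for each probe set, which is the unit deposited. Neither version is given in the sources used here. The method removes background, brings the arrays to 1 distribution, which hides a change in total RNA, and compresses differences of dim probe sets. The number of arrays limits the precision. Scanner files were not used here.

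Of 54675 probe sets, 41097 carried 1 symbol in the platform annotation, 1801 several and 11777 none in the table used here. All 10 genes matched the RefSeq table of GRCh38.p14 by gene identifier. A gene took its brightest probe set and was kept when its highest value reached the 40th percentile of all values. Differences were taken within each pair, and limma (version 3.58.1, R 4.3.3) fitted knockdown and method together with eBayes and an intensity trend, 2-sided, with Benjamini-Hochberg adjusted p-values over all kept genes and a threshold of 0.05. The fit was first tested on simulated data with large known changes and noise as narrow as in the siRNA pair. The SD of differences across genes was 0.235 in the siRNA pair and 0.499 in the shRNA pair. The simulation thus does not bear on changes as small as those of the 10 genes. Samples were grouped by their titles. The genes named were the 10, ZEB2, a fixed set of pathway genes, list genes at 2-fold in any comparison, and the 3 nearest in pattern. Marker genes, and the dim B2M probe set, were named after their values were seen. The members and lists were chosen with earlier results of these data known. Alternatives were other probe set rules, filters, scalings, folds, moderation, blocks and control arrays. Promoter sequences came from RefSeq. The plots used Python 3.11.15 and matplotlib 3.10.9.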

Additional observations from a re-analysis of the deposited data

Results flagged for a closer look

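In 3 genes the 2 pairs had opposite signs, and this was not tested, since each group has 1 array. For B2M the shRNA difference was -0.37 and the siRNA difference 0.0153. For TAP2 they were -0.53 and 0.0303. For TAPBP they were 0.23 and -0.11.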

How the results depend on the processing

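Medians of the 10 genes kept their direction under other probe set rules, filters and scalings, from -0.46 to -0.35 in the shRNA pair, from -0.13 to -0.06 in the siRNA pair and from 0.13 to 0.25 between the controls. Only another control array moved them, to -0.55 in the shRNA knockdown (2 genes at 2-fold) and to 0.12 in the siRNA knockdown (1 gene at 2-fold). That swap mixes the method with the knockdown, and no shares over all genes were computed for it. Against the vector control, in the siRNA knockdown, HLA-B turned to 0.17, TAP1 to 1.06, TAPBP to 0.12 and HLA-E to 0.41. There PSMB9 turned to 0.42, HLA-F to 0.13 and TAP2 to -0.49. With the mean of probe sets TAPBP turned to 0.0207 in the siRNA pair and to -0.89 between the controls, and B2M to -0.20 and HLA-F to 0.03 in the siRNA pair. Without cross-hybridising probe sets HLA-F turned to 0.22 in the siRNA pair and to -0.38 between the controls. Between the controls the count at 2-fold was 2 without cross-hybridising probe sets and 0 at 3-fold. The method effect was called by limma for 3 of the 10 genes with the mean of probe sets, 2 without cross-hybridising probe sets, 0 without a filter and 4 of 22 probe sets fitted singly. Its calls over all genes were 1040 of 15082 as reported and 248 of 19775 without a filter. They were 2343 of 13994 with the mean of probe sets and 1306 of 14614 without cross-hybridising probe sets. With other scalings they were 2105 of 15082 (median centring), 2117 of 15080 (cyclic loess) and 2490 of 15081 (quantile normalization). Without a block they were 2943 of 15082, and with probe sets fitted singly 4715 of 29214. TAP1 had limma adjusted p-values from 0.016 to 0.0596. The common knockdown effect was called for 0 of the 10 in every setting, and for 0 of all features too. At an unadjusted p under 0.05 limma gave 40 to 822 features. The cause of these shifts was not tested. Of 227 single-gene values recomputed, 197 moved by under 0.1, but many of these could not move. They include 30 values without a filter and 30 at the 60th percentile, as a filter leaves the values of a kept gene unchanged. Genes whose probe set stayed the same could not move under the other probe set rules either. The labels carry no replicate numbers, so no block on them was fitted, and pairing entered only as the method block of the limma fit. Leaving out an array was not run, since each group has 1.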
